A study of Mus musculus with 4 samples.

Results

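The genes described here encode the proteins of the cytosolic ribosome. They were chosen by name from the gene table of a mouse RNA-seq series: protein-coding genes whose symbol begins with Rpl or Rps and a digit, together with Rpsa, Rplp0, Rplp1 and Rplp2, without pseudogenes and without the Rps6k kinases. The rule found 85 genes of 37620 in the table. They comprise 42 proteins of the large subunit, 31 of the small subunit, 3 stalk proteins and 9 paralogues, retrocopies or others. Among the last group is Rps19bp1, which matches the rule by name but encodes a binding partner of Rps19 and not a ribosomal protein.

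The libraries came from spiny projection neurons of the striatum, purified by flow cytometry on EGFP. D1 Q175 and D1 WT neurons (direct pathway) carried a Drd1-EGFP BAC transgene, and D2 Q175 and D2 WT neurons (indirect pathway) a Drd2-EGFP BAC transgene. Q175 mice were heterozygous for the zQ175 knock-in allele, a model of Huntington's disease in which the mouse huntingtin gene carries an expanded CAG repeat, and WT mice were wild type at that locus. All mice were male, 5 to 6 months old and on a C57BL6/J background. Each group is 1 library from a pool of 4 animals with 150000 cells each, so no group has replicates, and the D1 and D2 neurons also differ in the reporter line they came from, which cannot be told apart from cell type.

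Ribosomal proteins assemble with ribosomal RNA in the nucleolus and cytoplasm, each in about equal numbers, into the small subunit, which reads the mRNA, and the large subunit, which joins amino acids. Their mRNAs are short and abundant, and in mammals they begin with a run of pyrimidines, the terminal oligopyrimidine (TOP) motif, through which mTORC1 signalling and the protein Larp1 control their translation together. In neurons the same mRNAs are found in the cell body and in dendrites and axons.

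The motif can be read at the starts of several of these genes. RefSeq promoter entries (GRCm38.p6) matched 65 of the 85 genes, and 14 of the 65 (21.5%) had a start at which a C was followed by at least 4 bases that are C or T, searched on the gene's own strand at the annotated first base only. Of all 27025 genes in that promoter table, 3.01% had such a start. The 30-base windows below, 15 bases on each side of the start, are shown for 3 genes that rose in Q175 neurons (Rpl38, Rpl14 and Rps27) and 4 that did not pass the test (Rps10, Rps18, Rpl35a and Rps6). The run of C and T from the first transcribed base is in capitals.
Rpl38, chr11:114668565-114668594, plus strand: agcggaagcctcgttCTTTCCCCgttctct
Rpl14, chr9:120571502-120571531, plus strand: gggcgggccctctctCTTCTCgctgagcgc
Rps27, chr3:90213634-90213663, minus strand: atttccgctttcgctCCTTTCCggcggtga
Rps10, chr17:27635230-27635259, minus strand: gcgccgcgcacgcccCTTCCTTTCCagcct
Rps18, chr17:33955651-33955680, minus strand: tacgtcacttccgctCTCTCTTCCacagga
Rpl35a, chr16:33056467-33056496, plus strand: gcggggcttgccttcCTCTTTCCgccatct
Rps6, chr4:86857353-86857382, minus strand: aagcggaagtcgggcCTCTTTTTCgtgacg
The median log2 ratio of Q175 over WT in D2 neurons was 0.30 in the 14 genes with it and 0.21 in the other matched genes, and in D1 neurons it was -0.00 with the motif and 0.02 without. Unlike the medians further on, these had no count minimum and leave out genes without a promoter entry. The difference was not tested. Annotated starts can be off by a few bases, so a start without the motif says only that these letters are not at that base.

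Libraries held 39444046 to 42787014 counts, and 1 CPM (counts scaled to library size with TMM factors) stood for 38.2 to 43.8 counts. The 8 listed markers of D1 neurons were all lower in D2 than in D1 neurons and the 6 of D2 neurons all higher in the fit described below, as the labels would have it. Spiny neuron identity genes fell in Q175 neurons in 10 of 10 cases. The D2 Q175 library had the highest share of counts on mitochondrially encoded genes (11.1%, against 6.49% in D2 WT), and D1 Q175 had 8.98%, against 6.06% in D1 WT. Counts of RNA from sorted pools do not tell fewer cells of a type from less RNA per cell.

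Together the ribosomal protein mRNAs held 0.778% of counts in D1 Q175 (95% exact binomial interval 0.775 to 0.780), against 0.730% in D1 WT (0.727 to 0.732). In D2 neurons they held 0.865% in Q175 (0.862 to 0.868), against 0.700% in WT (0.697 to 0.702). On the normalized scale their summed level was 7489 CPM in D1 Q175, against 7525 CPM in D1 WT, but 8449 CPM in D2 Q175, against 7212 CPM in D2 WT. The D2 Q175 library was thus the one that stood apart on the normalized scale, while the D1 libraries differed little. The intervals cover counting error only, and they are too narrow even for that where several reads are copies of 1 molecule.

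Per length, the most abundant member was Rplp1, a protein of the acidic stalk, with 386.5 FPKM in D1 Q175, 357.3 FPKM in D1 WT, 445.9 FPKM in D2 Q175 and 316.6 FPKM in D2 WT. FPKM are the authors' fragment counts per length and library size. Next by mean FPKM came Rpl13a, Rps15, Rps2 and Rpl19, of which Rpl13a had 312.4 FPKM in D1 Q175, 255.9 in D1 WT, 378.7 in D2 Q175 and 274.1 in D2 WT. The median member stood at 126 FPKM in D1 Q175, 119 FPKM in D1 WT, 142 FPKM in D2 Q175 and 113 FPKM in D2 WT. The lowest were paralogues. Rpl10l, known as a testis paralogue of Rpl10, had 0 counts in all libraries, which allows a level of up to 0.0685 to 0.0784 CPM. Rpl39l, a testis paralogue of Rpl39, had 3 counts in D2 WT and 0 elsewhere. Rpl3l, known from muscle, lay between 1.34 and 1.93 FPKM, Rps27l between 8.99 and 9.86 FPKM and Rpl7l1 between 12.6 and 15.1 FPKM. All members but Rpl10l and Rpl39l, 83 genes, passed the filter on low counts and entered the test. Of them 81 had at least 5 CPM in either library of a comparison and entered the medians of ratios.

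The first question the design asks is how Q175 neurons differed from WT neurons in both cell types together. Of 83 members tested, 11 rose and 2 fell in Q175 neurons. The genes that rose were 6 of 42 of the large subunit and 5 of 31 of the small subunit, shares near that of all genes. The median change over the members was 0.14 on the log2 scale, against -0.00 over all genes tested. The test was edgeR's quasi-likelihood test on all 4 libraries with cell type as a second term, adjusted over all 15668 genes tested with the Benjamini-Hochberg method at 0.05. It called 26.9% of all genes, 12.8% as higher and 14.1% as lower, so the share of members called (15.7%) lay below that of the table, the share that rose (13.3%) was near it, and the share that fell (2.41%) was below it. Estimates were above 0 for 69 of 83 members, against 49.6% of all genes. The fit has 1 residual degree of freedom, which is the difference between the genotype ratios of D2 and D1 neurons. No replicate error enters its p-values. The D2 ratio exceeded the D1 ratio for 76 of 81 members, against 51.7% of all genes, and the fit counts this difference as error. The share of members called is to be read with that limit. A batch shared by the Q175 libraries cannot be told apart from genotype. Counts were simulated for the genotype effect shared by D1 and D2, with 15629 genes tested and 50 genes at each change. Of genes raised by 0.26 log2 18% were called, of genes lowered by it 8%, and of those raised or lowered by 1 log2 100%. Far fewer genes were changed there than were called in the data, which makes the adjusted threshold stricter. These shares are therefore not the power for the members. The count of members called depended on the settings, as did that of all genes. With library totals 34 members rose and 1 fell, while 2841 of all genes rose and 1382 fell. With DESeq2 4 members rose (Rps27, Rpl13a, Rpl14 and Rpl21) and Rpl4 fell, and 8.17% of all genes were called. Without the cell type term 0 members rose or fell, and 0.0255% of all genes were called.

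Rps27, a zinc-finger protein of the small subunit, had the smallest p among the genes that rose. It had 66.9 CPM in D1 Q175, against 42.0 CPM in D1 WT, and in D2 neurons 60.9 CPM in Q175, against 49.4 CPM in WT. Both Q175 libraries lay above both WT libraries, and the fitted change was 0.49 ± 0.09 (log2, SE; edgeR adjusted p = 0.000755). Its value depends on how reads were divided between it and a retrocopy, as shown further on.

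Large subunit genes that rose were Rpl21, Rpl5, Rpl14, Rpl38, Rpl13a and Rpl37. Rpl21 had 75.8 CPM in D1 Q175, against 66.8 CPM in D1 WT, and in D2 neurons 91.4 CPM in Q175, against 65.2 CPM in WT. The groups did not overlap and D2 Q175 was highest; the fitted change was 0.34 ± 0.09 (edgeR adjusted p = 0.00756). Rpl5, which binds 5S ribosomal RNA together with Rpl11 and in its free form binds the p53 regulator Mdm2, had 56.4 CPM in D1 Q175, against 47.9 CPM in D1 WT, and in D2 neurons 65.5 CPM in Q175, against 49.7 CPM in WT. It rose by 0.32 ± 0.09 (edgeR adjusted p = 0.00916), but with the counts of its pseudogenes added the change was 0.07 (edgeR adjusted p = 0.541). Rpl38, whose loss in mice alters the patterning of the axial skeleton, had 60.7 CPM in D1 Q175, against 56.6 CPM in D1 WT, and in D2 neurons 76.0 CPM in Q175, against 51.9 CPM in WT. Most of its difference lay in D2 neurons, and it rose by 0.33 ± 0.10 (edgeR adjusted p = 0.0169).

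Rpl14 had 151 CPM in D1 Q175, against 136 CPM in D1 WT, and in D2 neurons 173 CPM in Q175, against 127 CPM in WT, a rise of 0.30 ± 0.09 (edgeR adjusted p = 0.0141). Rpl13a, which in human cells also acts in silencing of interferon-induced mRNAs, had 213 CPM in D1 Q175, against 185 CPM in D1 WT, and in D2 neurons 252 CPM in Q175, against 197 CPM in WT (0.28 ± 0.08, edgeR adjusted p = 0.0176). Both genes were higher in each Q175 library than in either WT library. Rpl37, the weakest call of this subunit, rose by 0.26 ± 0.09 (edgeR adjusted p = 0.0440) and had an adjusted p of 0.108 by edgeR with its pseudogenes added.

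Small subunit genes that rose besides Rps27 included Rps20, Rps26 and Rps2. Rps20 shares few of its sequence windows with any other gene (7.44%), and all its deposited counts were whole numbers. It had 44.9 CPM in D1 Q175, against 40.7 CPM in D1 WT, and in D2 neurons 55.5 CPM in Q175, against 40.4 CPM in WT. The WT libraries were nearly equal and both Q175 libraries lay above them (0.30 ± 0.09, edgeR adjusted p = 0.0217). Rps26, a protein at the exit of the mRNA channel whose gene is mutated in some patients with Diamond-Blackfan anaemia, had 58.6 CPM in D1 Q175, against 55.1 CPM in D1 WT, and in D2 neurons 66.7 CPM in Q175, against 46.9 CPM in WT. It rose by 0.30 ± 0.10 (edgeR adjusted p = 0.0266), most of it in D2 neurons. Rps2, near the entry of the mRNA channel, had 222 CPM in D1 Q175, against 201 CPM in D1 WT, and in D2 neurons 249 CPM in Q175, against 192 CPM in WT (0.26 ± 0.09, edgeR adjusted p = 0.0327).

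Only Rpl4 and Rpl10a fell among the 83 members tested. Rpl4, whose extended loop lines the tunnel through which the new protein leaves, had 156 CPM in D1 Q175, against 205 CPM in D1 WT, and in D2 neurons 163 CPM in Q175, against 196 CPM in WT. The groups did not overlap, with a fitted change of -0.33 ± 0.08 (edgeR adjusted p = 0.00511). All its deposited counts were whole numbers, and it shares 16.5% of its windows with other genes. Rpl10a, the protein of the L1 stalk, had 88.2 CPM in D1 Q175, against 94.5 CPM in D1 WT, and in D2 neurons 89.6 CPM in Q175, against 117 CPM in WT. The D2 WT library was high and the other libraries were close to each other. Its fitted change was -0.24 ± 0.09 (edgeR adjusted p = 0.0407), and with pseudogene counts added it was -0.10 (edgeR adjusted p = 0.384).

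Within each cell type there is 1 library per genotype, so ratios are given with 95% exact conditional binomial intervals for counting error and no p. In D2 neurons the median member was 20.5% higher in Q175 than in WT, and in D1 neurons 0.641% higher. The median log2 ratio was 0.27 in D2 neurons, against -0.03 over all genes at the same count minimum, and 0.01 in D1 neurons, against -0.04 over all genes. In D2 neurons 72 of 81 members had a ratio above 0, against 45.3% of all genes, and in D1 neurons 44 of 81, against 44.3% of all genes. At least 1.2-fold higher in Q175 were 43 of 81 members in D2 neurons, against 15.5% of all genes, and 2 of 81 in D1 neurons, against 14.4%. At least 1.2-fold lower were 2 of 81 in D2 neurons (19.7% of all genes) and 4 of 81 in D1 neurons (18.3%).

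**Figure D1:**
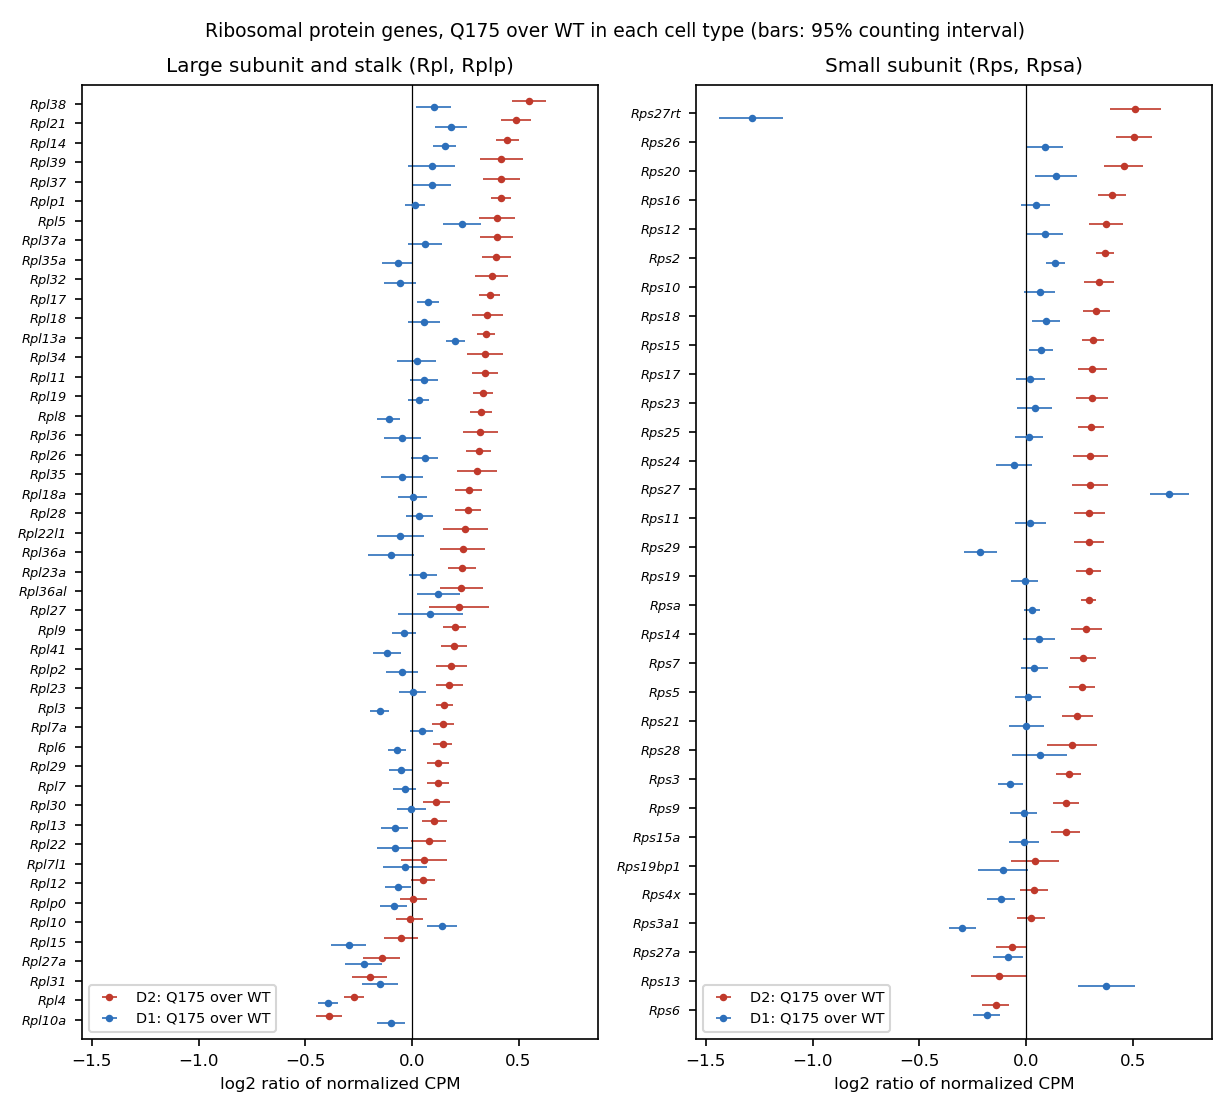
Log2 ratio of normalized CPM (x axis) of Q175 over WT for the ribosomal protein genes drawn (y axis, ordered by the D2 ratio), in D2 neurons (red) and D1 neurons (blue), with bars for the 95% counting interval. Most D2 ratios lie above 0, with 72 of 81 members positive, while D1 ratios lie on both sides of it, with 44 of 81 positive; Rps27rt and Rps27 have the lowest and the highest D1 ratio.

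The highest D2 ratios belonged to Rpl38 at 0.55 (0.47 to 0.63), Rps27rt at 0.51 (0.39 to 0.63), Rps26 at 0.51 (0.42 to 0.59), Rpl21 at 0.49 (0.42 to 0.56) and Rps20 at 0.46 (0.37 to 0.55). The lowest were those of Rpl10a at -0.39 (-0.45 to -0.33), Rpl4 at -0.27 (-0.32 to -0.22), Rpl31 at -0.20 (-0.28 to -0.12), Rpl27a at -0.14 (-0.23 to -0.06) and Rps6 at -0.14 (-0.20 to -0.08). With pseudogene counts added, the D2 ratio of Rpl31 turned to 0.04, that of Rpl27a to 0.14 and that of Rps6 to 0.20. The D2 ratio of Rpl10a was then -0.07. That of Rpl4, for which no pseudogene met the rule given further on, stayed at -0.27. In that counting 79 of 81 members had a D2 ratio above 0, and 43 of 81 a D1 ratio above 0. Rps6 is the ribosomal substrate of the S6 kinases. It had 99.2 CPM in D1 Q175, against 113 CPM in D1 WT, and in D2 neurons 92.5 CPM in Q175, against 102 CPM in WT. Both Q175 libraries lay below both WT libraries, but the change of -0.16 ± 0.08 did not pass the test (edgeR adjusted p = 0.138), and it turned to 0.05 with pseudogene counts added.

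In D1 neurons the highest ratios were those of Rps27 at 0.67 (0.58 to 0.76), Rps13 at 0.38 (0.24 to 0.51), Rpl5 at 0.23 (0.15 to 0.32), Rpl13a at 0.20 (0.16 to 0.25) and Rpl21 at 0.18 (0.11 to 0.26). The lowest were Rps27rt at -1.28 (-1.44 to -1.14), Rpl4 at -0.39 (-0.44 to -0.34), Rps3a1 at -0.30 (-0.36 to -0.23), Rpl15 at -0.30 (-0.38 to -0.21) and Rpl27a at -0.23 (-0.31 to -0.14). With pseudogenes added, the D1 ratio was 0.05 for Rps13, -0.03 for Rpl5, 0.13 for Rpl21, 0.01 for Rpl15 and -0.04 for Rpl27a. Rpl13a and Rpl4 had none that met the rule, and Rps3a1 stayed at -0.30. Rps27rt was the one member at least 2-fold apart between the genotypes in either cell type, against 0.705% of all genes at least 2-fold lower in D1 Q175. No member was at least 2-fold higher there, against 1.12% of all genes, and in D2 neurons none was 2-fold higher or lower, against 1.35% and 1.06%. The order of the genes was partly shared: across 81 members, which are not independent replicates, the D1 and D2 genotype ratios, which share no library, had a Spearman correlation of 0.58. Without Rps27 and Rps27rt it was 0.64. No value over all genes stands beside it, so it is not shown to be particular to these genes.

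The D2 ratio exceeded the D1 ratio for 76 of 81 members, against 51.7% of all genes. The intervals did not overlap for 62 members with the D2 ratio higher and for 4 with the D1 ratio higher. Counting intervals are narrow for abundant genes, and the share of all genes without overlap was not computed, so these counts have no background. As the D2 ratio minus the D1 ratio on the log2 scale, the highest differences were those of Rps27rt (1.79), Rps29 (0.51), Rpl35a (0.46), Rpl38 (0.45) and Rpl8 (0.43). Rps29, a zinc-binding protein of the small subunit head, had 65.0 CPM in D1 Q175, against 75.4 CPM in D1 WT, and in D2 neurons 87.6 CPM in Q175, against 71.5 CPM in WT. Rpl8, which lies near the peptidyl transferase centre, had 134 CPM in D1 Q175, against 144 CPM in D1 WT, and in D2 neurons 158 CPM in Q175, against 126 CPM in WT. Both genes were lower in Q175 in D1 neurons and higher in Q175 in D2 neurons. The lowest differences were those of Rps13 (-0.50), Rps27 (-0.37), Rpl10a (-0.29), Rpl10 (-0.15) and Rpl31 (-0.05). With the counts of pseudogenes added, 4 of these turned: the difference was 0.07 for Rps13, 0.05 for Rpl10a, 0.16 for Rpl10 and 0.21 for Rpl31. That of Rps27 also turned once Rps27rt was added to it, with log2 ratios of 0.37 in D2 and 0.13 in D1 neurons. With pseudogenes added the D2 ratio exceeded the D1 ratio for 80 of 81 members. Rps13 had 26.3 CPM in D1 Q175, against 20.3 CPM in D1 WT, and in D2 neurons 23.2 CPM in Q175, against 25.4 CPM in WT. With pseudogenes added its ratios were 0.13 in D2 and 0.05 in D1 neurons. With 1 library per group the difference between the genotype ratios could not be tested.

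The second question is how the neuron types differ. None of the 83 members was called between D2 and D1 neurons by edgeR, against 12.7% of all genes (5.99% higher and 6.68% lower in D2), and none by DESeq2. Without adjustment 2 members had p under 0.05, against 26.1% of all genes. Estimates were above 0 for 66 of 83 members, against 49.1% of all genes. The smaller p of them was that of Rps15, with 170 CPM in D2 Q175 and 137 CPM in D2 WT, against 135 CPM in D1 Q175 and 128 CPM in D1 WT (0.22, edgeR adjusted p = 0.0973). In WT mice the median member was slightly lower in D2 than in D1 neurons, with a log2 ratio of -0.06, against -0.03 over all genes, and 21 of 81 members were above 0, against 45.4% of all genes. At least 2-fold higher or lower in WT were 0 of 81 members, against 0.867% and 1.24% of all genes, and at least 1.2-fold 2 higher and 2 lower, against 12.6% and 12.9%. In Q175 mice the median was 0.19, against -0.01 over all genes, and 75 of 81 were above 0, against 47.5% of all genes. Here 18 of 81 members were at least 1.2-fold higher in D2 neurons, against 9.24% of all genes, and 0 at least 1.2-fold lower, against 11.8%. Rps27rt alone was at least 2-fold higher, against 0.764% of all genes, and none 2-fold lower, against 1.08%. The comparison in Q175 mice and the genotype comparison in D2 neurons share the D2 Q175 library.

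**Figure D2:**
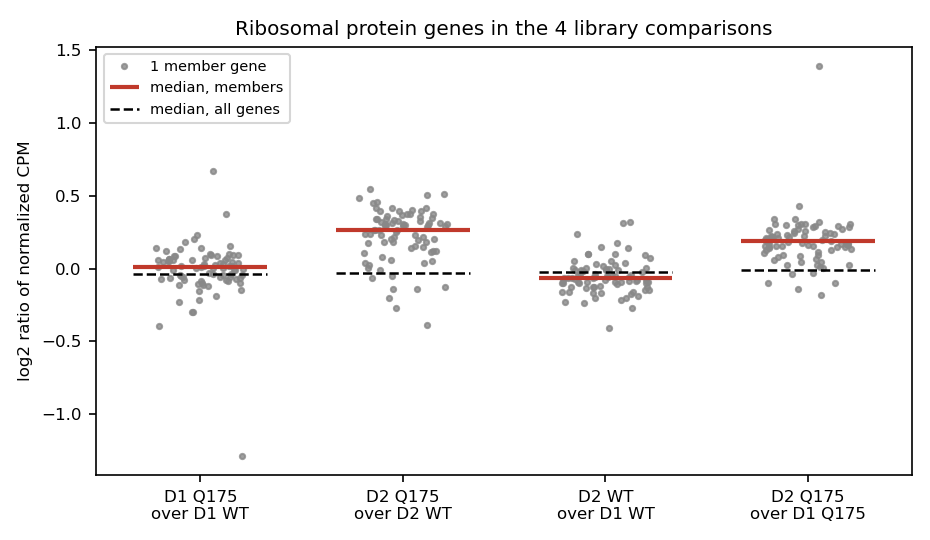
Log2 ratio of normalized CPM (y axis) of 81 ribosomal protein genes (grey points) in 4 comparisons of 2 libraries (x axis), with the median of the members (red line) and of all genes (dashed line). The members' medians are 0.01, 0.27, -0.06 and 0.19 from left to right, and the comparisons that stand away from the dashed line both hold the D2 Q175 library.

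The D2 Q175 library was the highest of the 4 for 65 of 83 members, against 28.8% of all genes. Both Q175 libraries lay above both WT libraries for 38 of 83 members, against 25.6% of all genes, and below them for 8 of 83, against 26.7%. The same D2 Q175 library had the highest share of mitochondrially encoded counts, given above, and the highest summed levels of marker genes of glia. The 10 microglia markers summed to 37.2 CPM in D1 Q175, 28.6 CPM in D1 WT, 43.6 CPM in D2 Q175 and 35.1 CPM in D2 WT. The 10 astrocyte markers summed to 178 CPM in D1 Q175, 163 CPM in D1 WT, 245 CPM in D2 Q175 and 195 CPM in D2 WT. For 10 oligodendrocyte markers the sums were 438, 364, 518 and 396 CPM in the same order of libraries, and for 8 endothelial markers 4.02, 3.84, 5.16 and 3.09 CPM. Single markers did not all follow the sums: Aif1 was highest in D1 WT, and Sox9 and Tmem119 were highest in D2 WT. Slc1a2 alone held 148 of the 245 CPM of astrocyte markers in D2 Q175. None of the markers of these 4 cell types was at 0 in any library. The part of these cells, or of mitochondrial RNA, in the ribosomal protein values was not tested.

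The stalk proteins, which recruit the GTPases that drive translation, did not move as 1 block. Rplp1 had 184 CPM in D1 Q175, against 182 CPM in D1 WT, and in D2 neurons 216 CPM in Q175, against 161 CPM in WT. Rplp2 had 70.0 CPM in D1 Q175, against 72.2 CPM in D1 WT, and in D2 neurons 81.2 CPM in Q175, against 71.4 CPM in WT. Rplp0, the base of the stalk, had 97.7 CPM in D1 Q175, against 104 CPM in D1 WT, and in D2 neurons 97.8 CPM in Q175, against 97.3 CPM in WT. Rplp1 was higher in D2 Q175 than in the other libraries and Rplp0 was nearly level across them. None of the 3 was called (edgeR adjusted p = 0.0940 for Rplp1, 0.573 for Rplp2 and 0.756 for Rplp0).

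No tested paralogue was called. Rpl22l1, the paralogue of Rpl22, had 33.03 CPM in D1 Q175, against 34.3 CPM in D1 WT, and in D2 neurons 38.1 CPM in Q175, against 32.0 CPM in WT. Rpl36al, the paralogue of Rpl36a, had 41.9 CPM in D1 Q175, against 38.4 CPM in D1 WT, and in D2 neurons 43.3 CPM in Q175, against 36.9 CPM in WT. These followed the pattern of most members in D2 neurons, while Rps27l, Rpl7l1 and Rps19bp1 had D2 ratios of -0.02, 0.06 and 0.04. Rpl3l had 1.75 CPM in D1 Q175, against 2.43 CPM in D1 WT, and in D2 neurons 1.94 CPM in Q175, against 2.14 CPM in WT, with a counting interval that includes 0 in D2 neurons. Ribosomal proteins made as ubiquitin fusions or named outside the rule gave no calls among Rps27a, Fau and Rack1, with unadjusted p in edgeR's test between 0.356 and 0.811. Their D2 ratios ran from -0.07 for Rps27a over 0.06 for Fau to 0.06 for Rack1.

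Rps27 and Rps27rt show how far values of a single member depend on the division of shared reads. Rps27rt is an intronless copy of Rps27 on chromosome 9, whereas Rps27 lies on chromosome 3. In the GENCODE M21 transcripts their coding sequences of 255 nt are identical, with 0 differences, whereas that of the related gene Rps27l differs at 61 positions (76.1% identity). The coding sequence shared by Rps27 and Rps27rt is printed first and that of Rps27l second, with the bases that differ from Rps27 in capitals.
Rps27 and Rps27rt: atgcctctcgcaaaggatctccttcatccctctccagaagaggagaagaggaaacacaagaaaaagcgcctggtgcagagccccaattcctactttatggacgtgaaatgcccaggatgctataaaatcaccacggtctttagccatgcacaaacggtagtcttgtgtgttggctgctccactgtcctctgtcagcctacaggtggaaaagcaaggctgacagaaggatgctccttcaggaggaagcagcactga
Rps27l: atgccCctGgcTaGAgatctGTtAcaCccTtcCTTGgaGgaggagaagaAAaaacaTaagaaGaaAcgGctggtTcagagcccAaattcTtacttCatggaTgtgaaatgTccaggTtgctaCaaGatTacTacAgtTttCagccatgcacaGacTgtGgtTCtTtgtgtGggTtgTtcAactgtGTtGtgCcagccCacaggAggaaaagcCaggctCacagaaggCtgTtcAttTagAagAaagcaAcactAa
Over whole transcripts, 98.6% of the 50-base windows of Rps27 occur in another gene, so most 50-base reads fit both genes equally well. The authors' estimated counts gave Rps27 2797 and Rps27rt 528 counts in D1 Q175, against 1606 and 1179 counts in D1 WT. In D2 Q175 Rps27 had 2667 and Rps27rt 1453 counts, against 1965 and 925 counts in D2 WT. Rps27 thus took 84.1% of the pair's counts in D1 Q175, against 57.7% in D1 WT, and 64.7% in D2 Q175, against 68.0% in D2 WT. The sum of the pair varied far less, at 79.6 CPM in D1 Q175, 72.8 CPM in D1 WT, 94.1 CPM in D2 Q175 and 72.7 CPM in D2 WT. The log2 ratio of the sum was 0.13 in D1 neurons and 0.37 in D2 neurons, and the summed pair rose by 0.25 ± 0.08 (edgeR adjusted p = 0.0337).

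**Figure D3:**
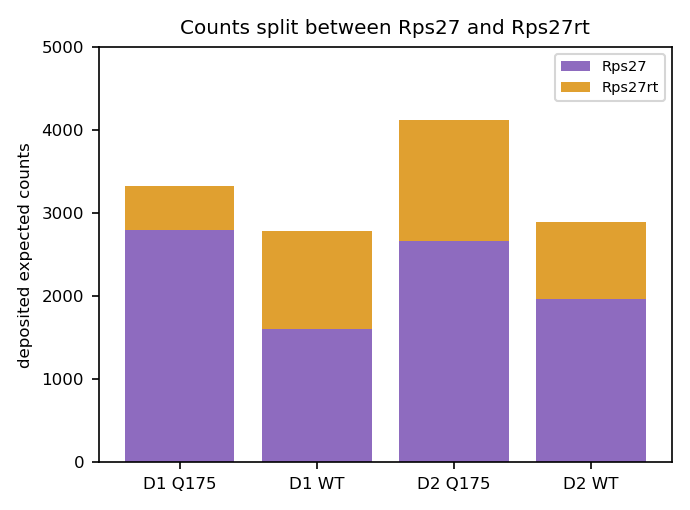
Deposited expected counts (y axis) of Rps27 (purple) and its retrocopy Rps27rt (orange), stacked, in each of the 4 libraries (x axis). The split moves between 57.7% and 84.1% for Rps27 while the sums stay within 2785 and 4120 counts.

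Shared sequence is common among these genes. The median member shares 52.1% of its 50-base windows with another annotated gene, 45 of 85 share at least 50%, and 13 share less than 20%. A pseudogene row was added to a member if it shares at least 20% of that member's windows. Members without such a row can still share reads: 57.4% of the windows of Rpl13a and 16.5% of those of Rpl4 occur elsewhere. Adding the counts of 194 pseudogene rows to 56 members left 10 members called, 9 of which are among the 13 called from the deposited counts. Rps12 was called only with them added. In that counting the median ratio was 0.28 in D2 neurons and 0.01 in D1 neurons. Over the members with less than 20% of windows shared, the median D2 ratio was 0.23, and the median D1 ratio turned to -0.04. Rpl10l, Rpl39l and Rpl3l lay below the CPM minimum and did not enter these medians. Rps19bp1, which is not a ribosomal protein, and the paralogue Rpl7l1 did enter, with D2 ratios of 0.04 and 0.06. The other genes that entered had D2 ratios from -0.27 for Rpl4 to 0.46 for Rps20. Medians without Rps19bp1 and Rpl7l1 were not computed. The share of windows itself had a Spearman correlation of -0.07 with the D2 ratio and 0.10 with the D1 ratio across 81 members, a description over genes of the same libraries.

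Other gene groups give the setting, beside 12.8% of all genes called higher and 14.1% called lower. Mitochondrial ribosomal proteins, which serve the separate ribosome of mitochondria, had 1 of 77 genes that rose and 2 that fell, with median ratios of 0.05 (D2 neurons) and -0.07 (D1 neurons). Nuclear genes of oxidative phosphorylation had 4 of 79 that rose and 5 that fell, with median ratios of 0.12 (D2) and -0.08 (D1). Proteasome subunits had 3 of 41 that rose and 4 that fell, with median ratios of -0.02 (D2) and -0.12 (D1). Other coding genes of up to 1000 nt, a length implied by the deposited counts and FPKM, had 149 of 1073 that rose and 73 that fell, with median ratios of 0.11 (D2) and -0.01 (D1). In these groups too the D2 median exceeded the D1 median. Across the members, length had a Spearman correlation of -0.44 with the D2 ratio and -0.22 with the D1 ratio.

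**Figure D4:**
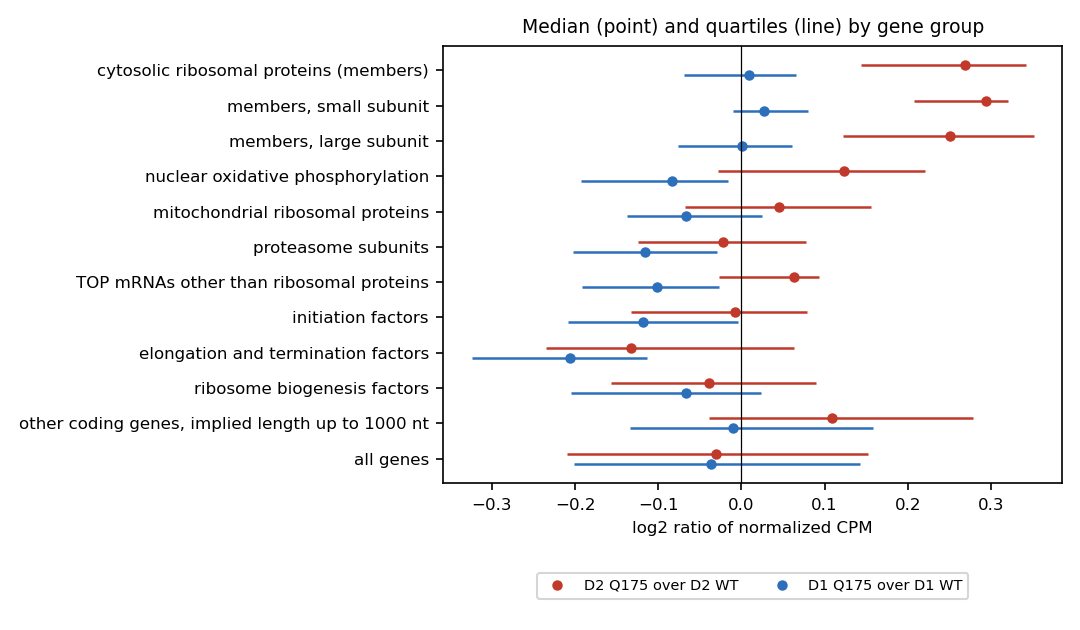
Median (points) and quartiles (lines) of the log2 ratio of normalized CPM of Q175 over WT (x axis) for 12 gene groups (y axis), in D2 neurons (red) and D1 neurons (blue). The ribosomal protein genes have a D2 median of 0.27 in all and 0.29 and 0.25 in the small and large subunits, with 0.11 for other short coding genes and -0.03 for all genes. Mitochondrially encoded genes (0.67) and glial markers (0.35 to 0.40) lie higher and are not drawn. The glial medians rest on the 2 microglia, 4 astrocyte and 5 oligodendrocyte markers that reach 5 CPM.

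Of 10 elongation and termination factors, 0 rose and 5 fell, against 12.8% and 14.1% of all genes. Their median ratios were -0.13 (D2) and -0.21 (D1). Gspt1, a release factor, fell by 0.35 on the log2 scale (84.2 CPM in D1 Q175 and 76.7 CPM in D2 Q175, against 106 CPM for D1 WT and 99.5 CPM for D2 WT; edgeR adjusted p = 0.00266). Eef1a2, the neuronal and muscle form of the factor that delivers tRNA, fell by 0.41 (edgeR adjusted p = 0.00277), and Etf1, the other release factor, fell by 0.31 (edgeR adjusted p = 0.0130). Of 36 initiation factors, Eif2s1 fell by 0.39 (edgeR adjusted p = 0.00725) and Eif1 by 0.26 (edgeR adjusted p = 0.0284), and 0 rose; their median ratios were -0.01 (D2) and -0.12 (D1). Other mRNAs known to carry a TOP motif had median ratios of 0.06 (D2) and -0.10 (D1). Of these 19 mRNAs 0 rose and 3 fell (15.8%, near the 14.1% of all genes). The 3 were Hnrnpa1, an RNA-binding protein (-0.53, edgeR adjusted p = 0.000948), Nap1l1, a histone chaperone (-0.39, edgeR adjusted p = 0.00208), and Eef2, the translocation factor (-0.27, edgeR adjusted p = 0.0264).

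Of 39 ribosome biogenesis factors, 2 rose and 5 fell, with median ratios of -0.04 (D2) and -0.07 (D1). The share called in either direction (17.9%) lay below that of all genes (26.9%). Fbl, the methyltransferase of the nucleolus, rose by 0.31 (edgeR adjusted p = 0.0411) and Riok1, a kinase of small subunit maturation, by 0.29 (edgeR adjusted p = 0.0217). Ncl, a major nucleolar protein, fell by 0.30 (edgeR adjusted p = 0.00979), as did Bop1, a large subunit assembly factor (-0.31, edgeR adjusted p = 0.0119), and Dkc1, the pseudouridine synthase (-0.32, edgeR adjusted p = 0.0222). Among 4 ribosomal proteins that bind Mdm2 or belong to the 5S particle, Rpl5 alone rose, and of 13 genes mutated in human Diamond-Blackfan anaemia, Rpl5 and Rps26 rose (15.4%, against 12.8% of all genes called higher). The call of Rpl5 was lost with pseudogenes added (edgeR adjusted p = 0.541).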

How the data were processed

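RNA-seq of 4 pooled libraries was analysed. The deposited gene table holds expected counts (estimated counts, 18.7% of values not whole) that the authors left without normalization, read from the values. A deposited table of FPKM, fragments which the authors scaled to gene length and depth, per the file title, was used for levels between genes and for limma. Reads were paired and 50 nt long, per the labels. The submitters' processing notes list CASAVA 1.8.2; which aligner, counter, annotation and build were used is not given in the sources used here. Symbols were matched for 32897 genes; rows without one held 1.37% to 1.69% of counts.

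Counts were rounded, normalized with TMM, filtered with filterByExpr and fitted in edgeR 4.0.16 (R 4.3.3) with additive terms for cell type and genotype, two-sided, Benjamini-Hochberg over all 15668 genes; the common biological coefficient of variation was 6.80%. SEs were taken as the size of the change over the root of F. The fit was tested on simulated data. Ratios of 2 libraries used a prior count of 2 and genes reaching 5 CPM in at least 1 of them; the limit for a count of 0 is 3 counts. Shared windows of 50 bases and coding sequences came from GENCODE M21 transcripts (1 per gene), promoter windows from RefSeq. Alternatives were RLE factors, library totals, TMM without the members and mitochondrial genes, DESeq2 1.42.0, limma 3.58.1 on log2(FPKM + 0.1) or log2(FPKM + 1), other filters and subsets of members.

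The members and lists were chosen with earlier results of these data known. Named genes are the 8 smallest p in each direction among called members, the 5 highest and lowest ratios per cell type, differences between ratios and mean FPKM, all paralogues, stalk and ubiquitin-fusion genes, and up to 3 called genes per direction of other lists. Rpl37, Rps12 and Rps15, the 1.2-fold limit, the pseudogene counting, the subset with little shared sequence and the sum of Rps27 and Rps27rt were added after their values were seen. Some genes that enter the counts and medians are not reported here by name.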

Additional observations from a re-analysis of the deposited data

Results flagged for a closer look

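For 9 members the Q175 over WT ratio had opposite signs in D1 and D2 neurons, with both 95% counting intervals away from 0. The share of all genes that meet this rule was not computed, and abundant genes meet it more easily because their counting intervals are narrow. Each value is the log2 ratio in D2 minus that in D1, and the difference was not tested. Rps27rt differed by 1.79, Rps29 by 0.51, Rpl8 by 0.43, Rpl41 by 0.31, Rpl3 by 0.30, Rps3 by 0.27, Rpl6 by 0.21 and Rpl13 by 0.19, all lower in Q175 in D1 neurons and higher in D2 neurons. Rps13 differed by -0.50, higher in Q175 in D1 neurons and lower in D2 neurons. With pseudogene counts added the ratios of Rps13 had the same sign, 0.13 in D2 and 0.05 in D1 neurons, as did those of Rpl13, 0.19 in D2 and 0.04 in D1 neurons, and the pair of Rps27 and Rps27rt summed had 0.37 in D2 and 0.13 in D1 neurons. Rps3 and Rpl8 share few windows with other genes (2.96% and 7.86%), Rpl3, Rps13 and Rps27rt most of theirs (85.6%, 83.0% and 91.1%).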

How the results depend on the processing

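The deposited counts gave 11 members higher and 2 lower in Q175. RLE factors and TMM without the members and mitochondrial genes gave like counts. Library totals gave 34 higher and 1 lower, with the median of all genes shifted to 0.08. DESeq2 gave 4 and 1, with 8.17% of all genes called. Using no filter on low counts gave 1 and 1, with 9.26% of all genes called. With limma on log2(FPKM + 0.1) there were 21 and 0, with the median of all genes shifted to 0.066. Of all genes that fit called 2210 higher and 1123 lower. On log2(FPKM + 1) limma gave 22 and 0, with the median of all genes at 0.060. Without a filter limma gave 0 and 0. It called 0 of all 23745 genes there, so that setting does not tell the members apart from other genes. Without the cell type term there were 0 and 0. With pseudogene counts added 1 was lower; members with whole counts gave 1 and 1, as did members with under 20% of windows shared. No setting called a member between cell types.

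The median D1 ratio of 0.01 moved to 0.11 with library totals and on both FPKM scales (0.113). It turned to -0.11 over members with whole counts and -0.044 over those with under 20% of windows shared. Of the 9 members with whole counts, only Rpl32, Rpl4, Rpl8, Rps19bp1 and Rps20 reached the CPM minimum for ratios. Their median is the D1 ratio of Rps19bp1 (-0.108), which is not a ribosomal protein, so it describes these few genes only. Rps19bp1 also entered the subset with under 20% shared. The D2 ratio stayed above 0, at 0.35 with library totals, 0.29 with a minimum of 50 CPM, 0.36 and 0.35 on the FPKM scales with 0.1 and 1 added, 0.32 over members with whole counts, 0.29 outside the paralogue list, 0.28 with pseudogenes and 0.23 with under 20% shared. For D2 over D1 in WT it was -0.072 with a minimum of 50 CPM and with under 20% shared, and -0.074 on both FPKM scales. For D2 over D1 in Q175 it was 0.17 with library totals, 0.18 with no minimum, on both FPKM scales and with pseudogenes, and 0.17 with under 20% shared.

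As a share of nuclear counts the members held 0.854% in D1 Q175, 0.777% in D1 WT, 0.972% in D2 Q175 and 0.748% in D2 WT; members with whole counts held 0.0454%, 0.0483%, 0.0503% and 0.0447% of all counts. No called member changed sign in any setting. Members below the threshold that did were 5 with pseudogenes, 5 with library totals, 4 in each limma fit and 1 without the cell type term. Named ones among them were Rpl15 (0.095), Rpl27a (0.0506), Rps6 (0.0454) and Rps27a (0.0894) with pseudogenes; Rplp0 (0.0486), Rps19bp1 (0.0545) and Rps27a (0.0124) with library totals; and Rps19bp1 and Rps27a in the limma fits with 0.1 added (0.0539 and 0.00656, with or without a filter) and with 1 added (0.0526 and 0.00651). The cause was not tested.

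No paired analysis was possible because each group holds 1 library and all replicate numbers are 1. Leaving out a library leaves no residual degree of freedom, so it was not run; the values within each cell type stand in its place.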

Other observations

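Of 13 genes for RNA polymerase I and its factors, which make ribosomal RNA, 0 rose and 1, Ubtf, the factor that opens the ribosomal DNA, fell, against 12.8% of all genes called higher and 14.1% called lower. Ubtf had 205 CPM in D1 Q175 and 206 CPM in D2 Q175, against 275 CPM for D1 WT and 270 CPM for D2 WT (edgeR, -0.41 ± 0.08, adjusted p = 0.00101). Of 17 tested genes of mTORC1 signalling and TOP mRNA translation, Rps6kb2, an S6 kinase, rose and Eif4ebp2, the neuronal binding partner of the cap-binding factor, fell. Rps6kb2 had 112 CPM in D1 Q175 and 153 CPM in D2 Q175, against 79.3 CPM for D1 WT and 126 CPM for D2 WT (edgeR, 0.39 ± 0.08, adjusted p = 0.00181). Eif4ebp2 had 3.81 CPM in D1 Q175 and 3.63 CPM in D2 Q175, against 6.56 CPM for D1 WT and 5.59 CPM for D2 WT (edgeR, -0.70 ± 0.16, adjusted p = 0.00284).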
